A study of Mus musculus with 6 samples.

Results

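The 9 genes described here are the keratin genes Krt7, Krt8, Krt18, Krt19 and Krt80 and the desmosome genes Dsp, Perp, Jup and Pkp2, followed in mouse fibroblasts of 3 origins. They are 9 of the 57180 gene identifiers in the count table, and all 9 passed the filter on low counts that left 18143 genes for testing. They were chosen by name because several of them are higher in the cardiac and lung libraries labelled Ad-Cre, so their differences between the viruses in those libraries are given as a description, without a test. Bulk RNA was sequenced from lung, cardiac and tail tip fibroblasts. Cells of each origin received either Ad-GFP, an adenovirus carrying green fluorescent protein and the control, or Ad-Cre, an adenovirus carrying Cre recombinase, and were harvested after 48 h. The labels describe Ad-Cre as the GATA4 knockout, yet they give the genotype of all 6 libraries as WT, and they name no floxed allele, strain, age or number of animals. Each of the 6 groups is 1 library, so a difference between the viruses within an origin has no replicate check.

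Keratins are the intermediate filament proteins of epithelial cells, and a keratin filament is built from pairs of a type I keratin (here Krt18 and Krt19) and a type II keratin (here Krt7, Krt8 and Krt80). Simple keratins such as Krt7, Krt8, Krt18 and Krt19 are known from single-layered epithelia and from mesothelium, whereas fibroblasts build their filaments mainly from vimentin. Desmosomes are spot-like junctions between cells in which plakoglobin (Jup) and plakophilins (Pkp2) link the adhesion proteins in the membrane to desmoplakin (Dsp), which in turn holds keratin filaments, or desmin filaments in heart muscle.

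Total counts ran from 26170316 to 33779069 reads a library, and 3 reads corresponded to between 0.0905 and 0.117 CPM (reads per megaread of a library whose size was scaled by TMM, which evens out differences in library composition). All 10 markers of a fibroblast list had reads in all 6 libraries. Genes with a read numbered 22665 and 23120 in the cardiac libraries and between 25234 and 27267 in the others. Gata4, the gene named in the labels, had 146.5 CPM with Ad-GFP and 149.2 CPM with Ad-Cre in cardiac fibroblasts, a ratio of 1.02 (95% counting interval 0.978 to 1.06). In the lung pair its ratio was 1.31 (1.14 to 1.49), so neither Ad-Cre library had less RNA of the targeted gene, and the labels name no deleted exon. A count over the whole gene could miss the loss of a short part. Directions between the viruses below are those of the labels.

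Upstream sequence was read for the members from a RefSeq table of GRCm38.p6, which held 5 of the 9 (Jup, Dsp, Krt7, Krt8 and Krt18). It is shown for Krt8 and Krt18, the partner keratins that are neighbours on the chromosome and were both higher in 2 libraries labelled Ad-Cre. It is also shown for Jup, which was lower with Ad-Cre in the cardiac pair and higher in the lung and tail tip pairs. Each stretch ends where annotated exons begin and is written 5′ to 3′ on the strand of the gene. It covers chr15:102004483-102004592 on the minus strand for Krt8 (bases 250 to 141 before the start), chr15:102027966-102028179 on the plus strand for Krt18 (bases 250 to 37 before it) and chr11:100397791-100398040 on the minus strand for Jup (the 250 bases before it). Capitals mark the searched words described below.
Krt8: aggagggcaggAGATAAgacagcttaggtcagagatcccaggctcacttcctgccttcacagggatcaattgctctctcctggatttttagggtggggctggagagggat
Krt18: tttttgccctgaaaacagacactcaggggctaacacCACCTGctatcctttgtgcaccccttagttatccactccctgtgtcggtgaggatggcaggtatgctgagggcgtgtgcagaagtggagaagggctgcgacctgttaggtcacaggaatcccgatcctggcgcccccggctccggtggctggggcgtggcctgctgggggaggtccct
Jup: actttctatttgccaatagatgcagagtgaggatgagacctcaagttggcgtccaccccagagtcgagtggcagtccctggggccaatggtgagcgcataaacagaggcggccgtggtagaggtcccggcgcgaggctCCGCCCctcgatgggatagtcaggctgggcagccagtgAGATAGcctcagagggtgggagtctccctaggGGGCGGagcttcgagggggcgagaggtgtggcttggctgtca

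The words were searched on both strands of the 250 bases before the start in the 5 members and in 32851 windows of the whole table. The GATA words were AGATAA along with AGATAG, or, beginning with other letters, TGATAA along with TGATAG. They were found in 2 of 5, once in Krt8 (239 to 234 bases before the start) and once in Jup (74 to 69 bases before it), and in 26.5% of all windows. The E-box word CAGGTG, which reads CACCTG on the other strand, was found in Krt7, Krt8 and Krt18 and in 17.2% of all windows. The match in Krt8 lies outside the stretch printed. The GC box GGGCGG was found in Jup, Dsp and Krt7 and in 32.7% of all windows. The Dsp window overlaps annotated exons throughout, and all matches in Krt7 lie outside its longest exon-free stretch of 39 bases. The AP-1 word TGANTCA and the TATA word TATAAA were in none of the 5 members, against 6.75% and 12.4% of all windows. A match is only a string of letters in this window and says nothing of binding.

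In cardiac fibroblasts all 5 keratin genes, together with Dsp and Perp, were at a higher level with Ad-Cre than with Ad-GFP, by between 3.47-fold (Krt19) and 102-fold (Krt7), while Jup and Pkp2 stood slightly lower. In lung fibroblasts the 5 keratin genes were again higher, by 1.55-fold (Krt19) to 93.1-fold (Krt7), with few control reads of Krt7, Krt8 and Krt18. No read of Dsp or Perp was found there with either virus. In tail tip fibroblasts the keratin genes were at or below 1.06 CPM with either virus. Bulk counts cannot tell apart fewer cells that express a gene and less RNA of it in each cell.

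The type II keratin gene Krt7 held 8 reads in the cardiac Ad-GFP library and 768 in the cardiac Ad-Cre library, 1 and 82 in the lung pair, and 5 and 4 in the tail tip pair. Its level was thus 0.246 and 25.1 CPM in the cardiac pair, 0.0343 and 3.19 CPM in the lung pair, and 0.157 and 0.121 CPM in the tail tip pair. It was almost unread in 4 libraries and stood out in the 2 labelled Ad-Cre from heart and lung. The cardiac ratio was 102 (51.6 to 238) and the lung ratio 93.1, whose interval of 16.3 to 3723 reflects the single control read. In the tail tip pair the ratio was 0.768 (0.152 to 3.57), an interval that includes 1.

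Krt8, the type II keratin that pairs with Krt18 in simple epithelia, had 12 and 231 reads in the cardiac pair, 5 and 52 in the lung pair, and 11 and 7 in the tail tip pair. In CPM it ran 0.369 and 7.56 in the cardiac, 0.171 and 2.03 in the lung and 0.346 and 0.211 in the tail tip pair. The same 2 libraries were high as for Krt7, and the other 4 lay close together. The ratio was 20.5 (11.5 to 40.3) in the cardiac pair, 11.8 (4.75 to 37.9) in the lung pair and 0.611 (0.201 to 1.73) in the tail tip pair.

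Krt80, a type II keratin of differentiating epithelia, was read in all 6 libraries. It stood at 2.49 and 35.3 CPM in the cardiac pair (81 and 1080 reads), 4.60 and 13.0 CPM in the lung pair (134 and 333 reads), and 0.723 and 1.06 CPM in the tail tip pair (23 and 35 reads). Of the controls the lung library was highest, and of the libraries labelled Ad-Cre the cardiac one. The ratios were 14.2 (11.3 to 18.0) in the cardiac and 2.82 (2.30 to 3.48) in the lung pair, and in the tail tip pair 1.46 (0.839 to 2.59), which includes 1.

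The type I keratin gene Krt18 had 67 and 1075 reads in the cardiac pair, 1 and 22 in the lung pair, and 4 and 0 in the tail tip pair. These were 2.06 and 35.2 CPM, 0.0343 and 0.857 CPM, and 0.126 and 0 CPM. Unlike Krt7 and Krt8, it was already higher in the cardiac control than in either lung library. The ratio was 17.1 (13.4 to 22.2) in the cardiac pair and 24.99 (4.04 to 1031) in the lung pair, and the 4 and 0 reads of the tail tip pair give no ratio.

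Krt19, the smallest keratin and a type I member, was read in every library: 153 and 498 reads in the cardiac pair, 49 and 67 in the lung pair, and 10 and 16 in the tail tip pair. The levels were 4.70 and 16.3 CPM, 1.68 and 2.61 CPM, and 0.314 and 0.483 CPM. The order of origins was the same with both viruses, cardiac above lung above tail tip. The cardiac ratio of 3.47 (2.89 to 4.18) was the smallest of the 5 keratin genes, and so was the lung ratio of 1.55 (1.06 to 2.29). In the tail tip pair the ratio of 1.54 (0.656 to 3.79) includes 1.

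**Figure D1:**
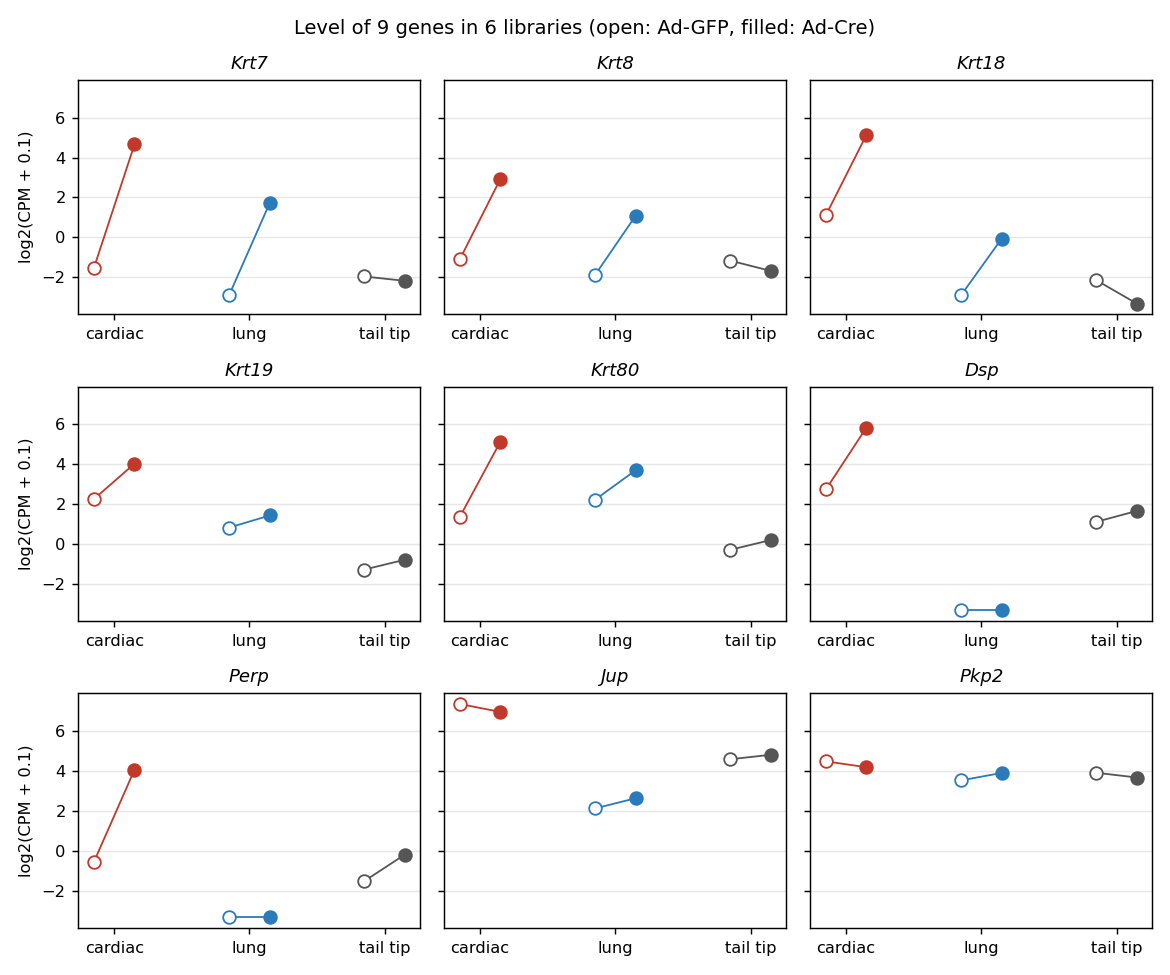
Level of each of the 9 genes as log2(CPM + 0.1) in the 6 libraries, open circles for Ad-GFP and filled circles for Ad-Cre, with a line joining the 2 libraries of an origin. Each circle is 1 library and has no error bar. The cardiac line climbs in 7 panels, from 0.246 to 25.1 CPM for Krt7, while Jup and Pkp2 slope slightly down.

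Dsp encodes desmoplakin, the protein that anchors filaments in the desmosome. Its reads were 215 and 1758 in the cardiac pair, 0 and 0 in the lung pair, and 66 and 102 in the tail tip pair, or 6.60 and 57.5, 0 and 0, and 2.07 and 3.08 CPM. With either virus the cardiac library was highest and the lung library empty. The ratio was 8.71 (7.56 to 10.1) in the cardiac pair and 1.48 (1.08 to 2.06) in the tail tip pair.

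Perp, a membrane protein of desmosomes that is known as a target of p53 and p63, had 19 and 510 reads in the cardiac pair, 0 and 0 in the lung pair, and 8 and 26 in the tail tip pair. In CPM these were 0.583 and 16.7, 0 and 0, and 0.251 and 0.785. As with Dsp, no lung library had a read, and the libraries labelled Ad-Cre were above their controls in the other 2 origins. The ratio was 28.6 (18.1 to 47.9) in the cardiac pair and 3.12 (1.37 to 7.98) in the tail tip pair. Perp was the member with the highest ratio in the tail tip pair, which the choice of genes did not use.

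Jup encodes plakoglobin, which serves in desmosomes and in adherens junctions. It had 5377 and 3828 reads in the cardiac pair, 125 and 158 in the lung pair, and 768 and 934 in the tail tip pair. The levels were 165 and 125 CPM, 4.29 and 6.15 CPM, and 24.1 and 28.2 CPM. The origins did not overlap, with cardiac highest and lung lowest, and the cardiac control was above the cardiac library labelled Ad-Cre. The ratio was 0.758 (0.727 to 0.790) in the cardiac pair, 1.44 (1.13 to 1.83) in the lung pair and 1.17 (1.06 to 1.29) in the tail tip pair.

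Pkp2, a plakophilin best known from the heart, varied least of the 9. It had 730 and 558 reads in the cardiac, 336 and 384 in the lung and 479 and 422 in the tail tip pair, or 22.4 and 18.3, 11.5 and 14.96, and 15.1 and 12.7 CPM. Both cardiac libraries were above the other 4, which overlapped between origins. The ratio was 0.814 (0.728 to 0.910) in the cardiac, 1.30 (1.12 to 1.51) in the lung and 0.846 (0.740 to 0.966) in the tail tip pair.

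**Figure D2:**
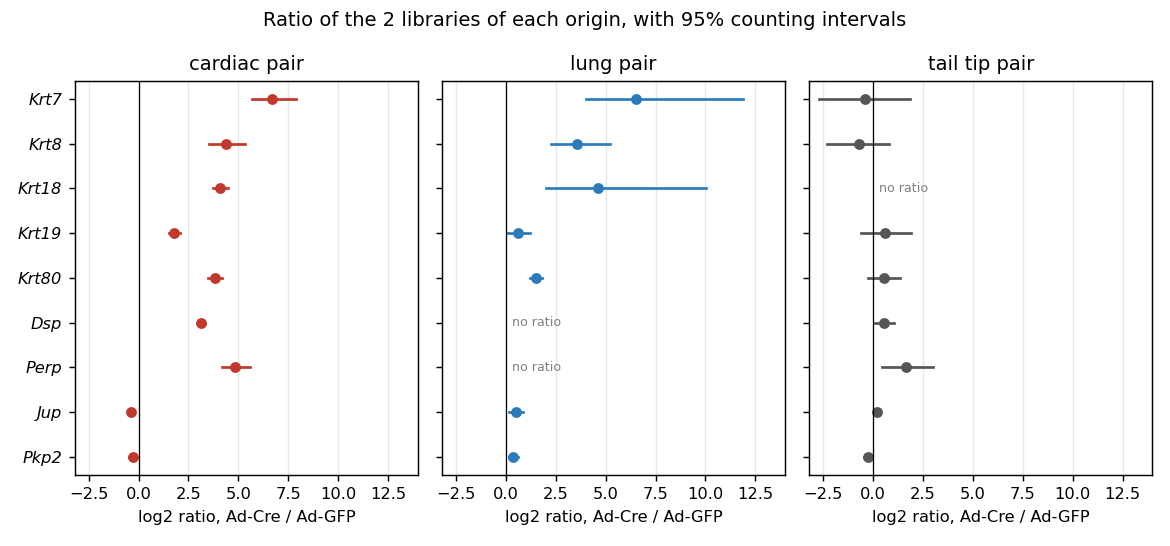
Log2 ratio of Ad-Cre to Ad-GFP for each gene, by origin, with lines for the exact 95% interval, which covers counting error only. In the cardiac panel 7 genes lie above 0 and 2 below it, in the lung panel 7 lie above 0 and 2 have no ratio, and in the tail tip panel 4 intervals include 0.

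At a threshold of 2-fold (on a log2 scale with a prior count of 2) 7 of the 9 genes were higher with Ad-Cre in the cardiac pair, against a background of 11.3% of tested genes, and none was lower, against 9.07%. The count was 4 of 9 in the lung pair (Krt7, Krt8, Krt18 and Krt80), against 4.87% of all tested genes. These 2 pairs chose the members, so nothing is read from the counts. In the tail tip pair the count was 1 of 9 (Perp), against 1.53% of all tested genes, and 1 of 9 was lower on this scale (Krt18, from 4 and 0 reads), against 1.58%. With the empty library at 3 reads Krt18 was only at least 1.39-fold lower, short of 2-fold. The median log2 ratio of the 9 genes was 3.79 in the cardiac, 0.62 in the lung and 0.22 in the tail tip pair. The lung value counts Dsp and Perp, unread there, as 0, and without them it was 1.48. Over all tested genes the median was 0.03 in the lung and 0.01 in the tail tip pair, and 0 in the cardiac pair.

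Fitted as 1 effect common to the 3 origins, the log2 difference of Ad-Cre from Ad-GFP was 5.31 ± 1.14 (SE) for Krt7, 3.55 ± 0.90 for Krt18, 3.55 ± 0.85 for Perp and 2.68 ± 0.99 for Krt8. It was 2.12 ± 0.58 for Krt80, 1.97 ± 0.61 for Dsp and 1.12 ± 0.35 for Krt19, and for Jup (0.08 ± 0.19) and Pkp2 (-0.06 ± 0.19) it was within its SE. Since this contrast takes in the libraries that chose the genes, these are descriptions. Each origin has 1 library per virus, so a virus effect that differs between origins widens the SE and raises p here. Over all 18143 genes edgeR's quasi-likelihood test called 0 for this effect, which is 0% (lowest adjusted p = 0.9996), with 367 at an unadjusted p under 0.05, and DESeq2 called 3, none of them among the 9.

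Levels were also divided by the length of all annotated exons of a gene joined together. That length was 7049 bases for Krt7, 6436 for Jup and 1437 for Krt18. It can exceed the length of the RNA made, so ranks and shares between genes on this scale are approximate. Per kilobase of exon, the highest of the 9 in the cardiac control was Jup at 25.7 CPM per kb. Pkp2 followed at 4.18, Krt19 at 2.53 and Krt18 at 1.43 CPM per kb. In the cardiac library labelled Ad-Cre the highest was Krt18 at 24.5 CPM per kb, ahead of Jup at 19.5. Krt19 stood there at 8.78, Perp at 8.55 and Dsp at 5.95 CPM per kb. In both lung libraries Pkp2 led, and in both tail tip libraries Jup. The type I members Krt18 and Krt19 made up 86.6% of the keratin level per kb in the cardiac control and 72.0% in the cardiac library labelled Ad-Cre. In the lung pair that share was 53.4% and 36.3%. Summed over the 5 keratin genes, the type I and type II levels in the cardiac library labelled Ad-Cre were 33.3 and 12.9 CPM per kb.

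Of 49 other keratin genes in the table, 11 had no read in any library and 6 reached 20 reads in a library. In the cardiac pair Krt17, a keratin of skin appendages and injured epidermis, had 0 and 74 reads, which makes it at least 26.3-fold higher with Ad-Cre. Krt16, of injured epidermis as well, had 0 and 24 reads (at least 8.52-fold), and Krt90 had 0 and 21 (at least 7.46-fold). These bounds set the empty library at a floor of 3 reads. Krt10, of the upper epidermis, had 20 and 40 reads in that pair, a ratio of 2.13 (1.22 to 3.85). Krt13 did not share the direction, with 23 and 12 reads and a ratio of 0.556 (0.252 to 1.16). Krt20 had its most reads in the tail tip, 66 and 82, with a ratio of 1.19 (0.852 to 1.68). In the cardiac pair the 49 genes summed to 2.70 and 9.78 CPM, and the 5 members to 9.86 and 119.5 CPM.

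On the chromosome 4 of the members bracket the type II keratin cluster. In the RefSeq gene order of GRCm38.p6, 27 protein-coding genes run from Krt80 to Krt18, with Krt80 and Krt7 first and Krt8 and Krt18 last. The 22 other keratin genes between them had at most 21 reads in any library, and 5 of them had none. Krt19 lies in the type I cluster and Jup just past its end, after Krt42, Eif1, Gast and Hap1. The stretch of 69 genes from Krt222 to Jup holds 26 other keratin genes, of which the most read had 82 reads in a library.

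**Figure D3:**
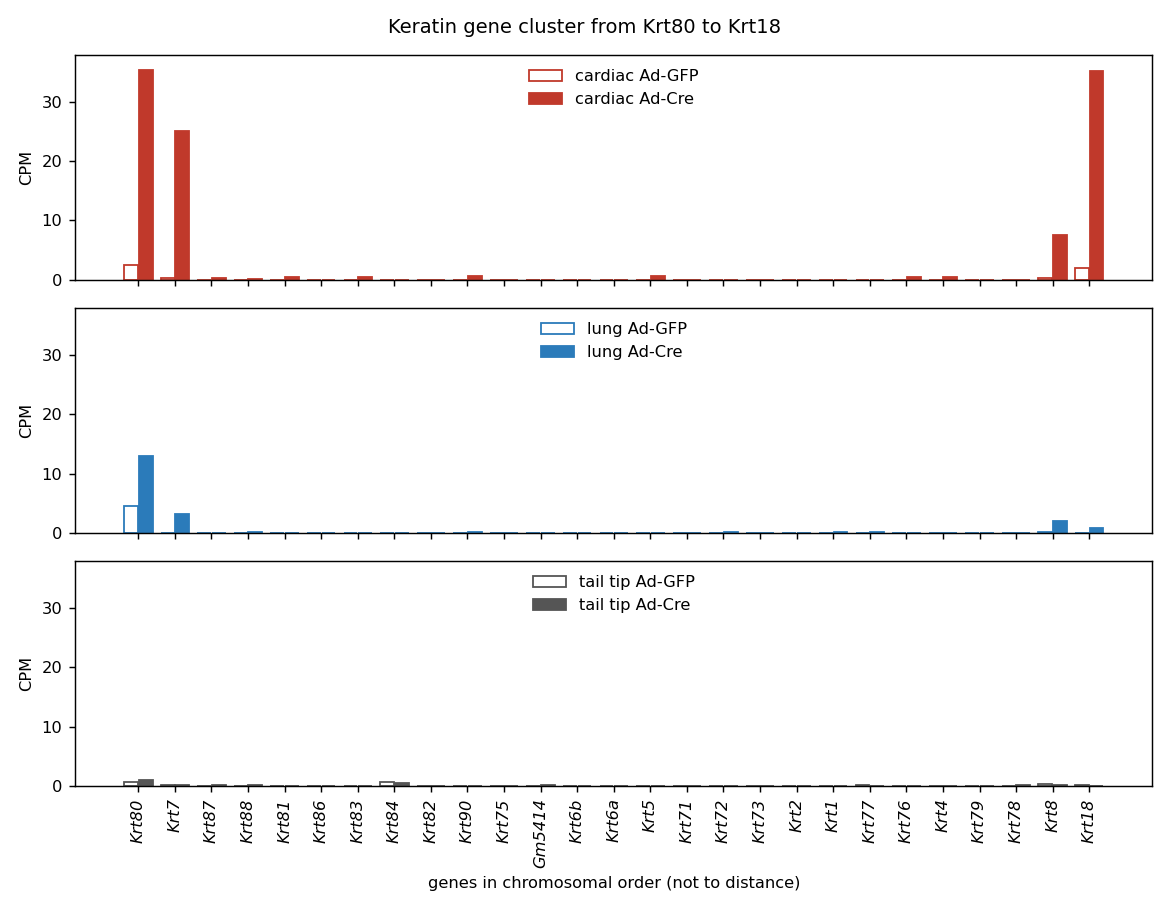
Level in CPM of the 27 genes from Krt80 to Krt18 in chromosomal order, not to distance, with 1 panel per origin, open bars for Ad-GFP and filled bars for Ad-Cre; each bar is 1 library, and CPM is not corrected for gene length. In the cardiac panel Krt80 (35.3 CPM), Krt7 (25.1), Krt8 (7.56) and Krt18 (35.2) stand at the ends, and the genes between are near 0.

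The other desmosome genes, a list of 13, differed by pair. Of these, 5 passed the filter. In the cardiac pair 2 of those were at least 2-fold higher with Ad-Cre and 1 lower, with a median log2 ratio of 0.59. In the lung pair 3 of the 5 were at least 2-fold higher and none lower, with a median of 1.33, from at most 27 reads in a library for each of the 3 (Pkp1, Pkp3 and Ppl). In the tail tip pair none was past 2-fold. Ppl, periplakin, a linker of filaments to the membrane, had 155 and 415 reads in the cardiac pair (ratio 2.85, 2.37 to 3.45). Evpl, envoplakin, its partner, had 92 and 27 (ratio 0.313, 0.196 to 0.485). Pkp1, a plakophilin known from the epidermis, had 3509 and 2421 reads there (ratio 0.735, 0.698 to 0.774). In the lung pair Pkp1 had 1 and 17 reads, Pkp3 4 and 27 and Ppl 2 and 7. The desmosomal cadherins, which form the adhesive core, were scarce. Dsc2 had 164 and 233 reads in the cardiac, 2 and 1 in the lung and 38 and 64 in the tail tip pair, Dsg2 had 4 and 24 in the cardiac pair, and Dsg1a and Dsg3 had no read in any library.

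The origins were compared over both viruses in the fit on all genes (edgeR's quasi-likelihood test with Benjamini-Hochberg adjustment), with 2 libraries an origin. The fit takes in the cardiac and lung libraries labelled Ad-Cre that chose the genes, so for the keratin genes, Dsp and Perp its differences from cardiac fibroblasts and its counts of calls are descriptions, given without p, and nothing is read from them. An adjusted p is printed for Jup and Pkp2, which were lower with Ad-Cre in the cardiac pair but higher in the lung pair (ratios 1.44 and 1.30). Their fit holds the libraries that chose the genes, so these p-values are not independent of the choice. Nothing in the labels says that libraries come from separate cultures or animals. With 1 library for each origin and virus, the 2 residual degrees of freedom hold any difference of the virus effect between origins. It cannot be told apart from spread between like libraries, so SEs and p-values measure both together. Between the cardiac and lung Ad-GFP libraries alone the log2 difference, with no test, was 5.25 for Jup, 4.41 for Krt18, 1.45 for Krt19, 1.64 for Krt7, 0.87 for Krt8, 0.96 for Pkp2 and -0.87 for Krt80. Dsp and Perp, with 0 reads in both lung libraries, were at least 121-fold and at least 10.7-fold higher in the cardiac Ad-GFP library, against a floor of 3 reads over both lung libraries. Over both viruses the bounds were 571-fold and 153-fold, with most of the cardiac reads in the library labelled Ad-Cre. The fitted difference over both viruses was 4.81 ± 0.26 (log2, SE; adjusted p = 3.36e-05) for Jup and 0.61 ± 0.23 (adjusted p = 0.0742, not passed) for Pkp2, which passed without the lung Ad-Cre library (adjusted p = 0.0394) and without the cardiac Ad-Cre library (0.00196). For the keratin genes it was 5.24 ± 0.93 (Krt18), 2.73 ± 1.04 (Krt7), 2.10 ± 0.40 (Krt19), 1.63 ± 1.00 (Krt8) and 0.54 ± 0.63 (Krt80), and without the cardiac Ad-Cre library Krt80 (-1.06) and Krt8 (-0.32) changed sign, as Krt80 did without the lung Ad-Cre library (-0.09). The fit called 5 of the 9, all higher in cardiac fibroblasts, where 38.4% of all tested genes were called and 20.8% were called higher. Leaving out the lung Ad-GFP library left 3 members and 5119 genes called, and leaving out the cardiac Ad-GFP library 8 members and 10065 genes, against 6967 genes with all libraries.

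Between the cardiac and tail tip Ad-GFP libraries alone, with no test, the log2 difference was 3.65 for Krt19, 3.47 for Krt18, 2.77 for Jup, 1.70 for Krt80 and 1.64 for Dsp. It was 1.03 for Perp, 0.57 for Pkp2, 0.48 for Krt7 and 0.08 for Krt8, so Krt7 and Krt8 hardly differed between these controls. Over both viruses Jup was higher in cardiac fibroblasts by 2.48 ± 0.23 (adjusted p = 0.000296), and Pkp2 did not pass (0.55 ± 0.23, adjusted p = 0.107) except without the cardiac Ad-Cre library (0.00373). As a description, the fitted difference was 7.70 ± 1.20 for Krt18, 5.63 ± 1.48 for Krt7, 4.55 ± 0.47 for Krt19, 3.74 ± 0.76 for Krt80 and 2.59 ± 1.22 for Krt8. For Perp it was 3.21 ± 0.85 and for Dsp 3.02 ± 0.62. The fit called 7 of the 9, all higher in cardiac fibroblasts, where 33.5% of all tested genes were called and 15.5% were called higher. Without the lung Ad-GFP library 3 members and 6250 genes were called and without the lung Ad-Cre library 3 and 6295, against 6077 genes with all libraries.

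Between lung and tail tip the members split. Jup was lower in lung fibroblasts (-2.33 ± 0.24, adjusted p = 0.000249 in edgeR's test). As a description, Dsp and Perp, unread in lung, were at least 47.3-fold and at least 9.57-fold higher in the tail tip. In its Ad-GFP library alone they were at least 37.9-fold and 4.60-fold higher. Pkp2 did not pass (-0.06 ± 0.23, adjusted p = 0.836). The spread in this fit draws on the cardiac and lung libraries that chose the genes, so these p-values are not independent of the choice either. The keratin genes are again a description: Krt80 (3.20 ± 0.74) and Krt19 (2.45 ± 0.47) were higher in lung over both viruses and by 2.56 and 2.20 between the Ad-GFP libraries alone. Krt7 (2.90 ± 1.51), Krt18 (2.46 ± 1.48) and Krt8 (0.96 ± 1.23) had the other sign between the Ad-GFP libraries alone (-1.16, -0.94 and -0.79). Those values rest on few lung and tail tip reads, 1 and 5 for Krt7, 1 and 4 for Krt18, 5 and 11 for Krt8. No direction is read from them. The fit called 5 of the 9, where 50.6% of all tested genes were called, 22.3% higher and 28.2% lower in lung. Fewer members were called without the lung Ad-GFP library and without the lung Ad-Cre library. Dsp was lost both times, and Perp without the lung Ad-Cre library. Without the cardiac Ad-GFP, the cardiac Ad-Cre or the tail tip Ad-GFP library 8 members were called each time, with 12528, 12560 and 5995 genes, against 9175 with all libraries.

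**Figure D4:**
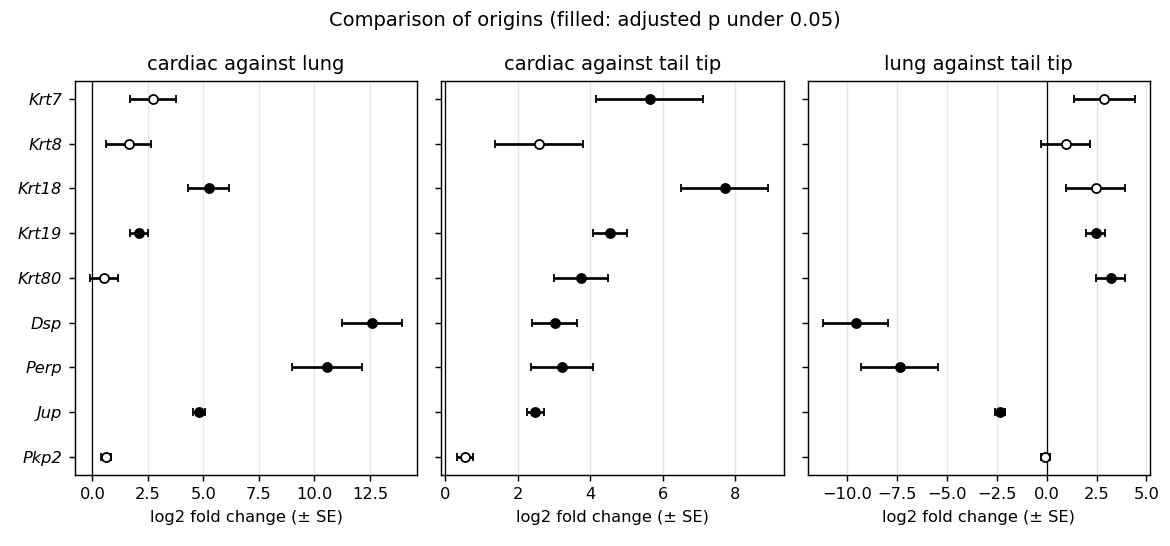
Log2 fold change between origins over both viruses for each gene, with bars of ± 1 SE from the fit on all 6 libraries; filled circles have an adjusted p under 0.05, and the 3 panels have different axes. The 5 filled circles of cardiac against lung and the 7 of cardiac against tail tip all lie above 0, while lung against tail tip has 2 above and 3 below. The libraries that chose the genes enter the fit, so the filled circles are a description. An adjusted p is printed for Jup and Pkp2 only, and is not independent of that choice. The fitted values of Dsp and Perp against lung rest on 0 reads there.

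Other genes of cell contacts were taken from fixed lists. Over all tested genes 11.3% were at least 2-fold higher and 9.07% lower with Ad-Cre in the cardiac pair. In the lung pair 4.87% were higher and 2.82% lower, and in the tail tip pair 1.53% and 1.58%. These shares are the background for the counts in every list, the desmosome and marker lists included. The lists are short, so nothing about a list is read from its count. Among 9 genes of hemidesmosomes and laminin-332, which attach epithelial cells to the basement membrane, 3 were at least 2-fold higher with Ad-Cre in the cardiac pair and 2 in the lung pair. Lamb3, a laminin chain, had 9 and 269 reads in the cardiac pair (ratio 31.8, 16.5 to 70.4) and 2 and 47 in the lung pair (26.7, 6.99 to 227). Itgb4, the integrin of hemidesmosomes, had 32 and 502 (ratio 16.7, 11.7 to 24.7) and 27 and 68 (2.86, 1.81 to 4.65), and in the tail tip pair 82 and 107 (1.25, 0.931 to 1.69). The median log2 ratio of the 9 was 0.35 in the cardiac and 0.42 in the lung pair.

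Most tested adherens and tight junction genes were within 2-fold in all pairs. Of 11 adherens junction genes 1 was at least 2-fold higher in the lung pair, and 1 was higher and 1 lower in the cardiac pair. The lower one was Cdh2, N-cadherin, one of the cadherins read in these fibroblasts, at 787.6 and 338.7 CPM (ratio 0.430, 0.420 to 0.440). Cdh1, E-cadherin, had 12 and 31 reads in the cardiac, 1 and 5 in the lung and 51 and 54 in the tail tip pair. Of 13 tight junction genes 6 were tested, and of those 1 was at least 2-fold higher in the cardiac pair and 1 in the lung pair. Tjp1, a scaffold protein, had ratios of 1.35 (1.28 to 1.42) and 1.01 (0.963 to 1.06) in these pairs.

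Epithelial surface and transcription genes were mostly unread: 7 of 17 passed the filter, 2 of them at least 2-fold higher with Ad-Cre in the cardiac pair and none in the lung and tail tip pairs. St14, the membrane protease matriptase, had 41 and 279 reads in the cardiac pair (ratio 7.25, 5.21 to 10.3). Epcam, an epithelial adhesion protein, had 1 and 47 there. None of 6 transcription factors of epithelial-mesenchymal transition was past 2-fold in any pair, with ratios in the cardiac pair of 1.33 (1.26 to 1.40) for Zeb1 and 0.793 (0.745 to 0.844) for Snai1. Of 9 other intermediate filament genes, Des, the desmin gene, was at 5.68 and 18.6 CPM in the cardiac pair (ratio 3.28, 2.78 to 3.90). Vim, vimentin, was at 6661 and 3549 CPM there (ratio 0.533, 0.529 to 0.537) and at 2882 and 3207 CPM in the lung pair.

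Markers of other cell types were counted beside the members, and their part in the results was not tested. Of 8 tested mesothelial markers 4 were at least 2-fold higher and 1 lower with Ad-Cre in the cardiac pair and none was past 2-fold in the lung or tail tip pair. The 10 genes of that list summed to 67.2 and 136.7 CPM in the cardiac, 155 and 194.8 CPM in the lung and 7.70 and 9.45 CPM in the tail tip pair. Upk3b had 95 and 878 reads in the cardiac pair (ratio 9.84, 7.96 to 12.3) and none in the lung pair. Msln, mesothelin, had 209 and 842 reads (4.29, 3.68 to 5.02) and in the lung pair 4462 and 4948. In contrast, Lrrn4 had 1048 and 288 reads (0.293, 0.256 to 0.334), and Wt1 had 307 and 270.

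Of 10 keratinocyte markers 5 were tested, 3 at least 2-fold higher and 1 lower in the cardiac pair. The defining genes were at or near 0, with 0 and 18 reads of Krt5, 0 and 10 of Krt14 and none of Trp63 in the cardiac pair. The list summed to 179 and 63.5 CPM there, mostly Sprr1a (162 and 49.0 CPM), to 31.3 and 33.7 CPM in the lung and to 3.61 and 3.05 CPM in the tail tip pair. Lung epithelial markers summed to between 1.04 and 8.20 CPM over the 6 libraries, with no read of Nkx2-1 or Sftpd. Cardiomyocyte markers summed to 80.4 and 59.8 CPM in the cardiac pair, mostly Tnnt2, and to between 4.47 and 36.5 CPM in the others.

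Macrophage markers differed between origins in part as Dsp, Perp and Jup did, being lowest in lung. The 10 summed to 1033 and 616.7 CPM in the cardiac, 19.4 and 15.3 CPM in the lung and 5245 and 4451 CPM in the tail tip pair, and 3 were at least 2-fold lower with Ad-Cre in the cardiac pair. Endothelial markers summed to 17.8 and 23.8 CPM in the cardiac, 9.05 and 12.2 CPM in the lung and 31.7 and 30.3 CPM in the tail tip pair. Fibroblast markers summed to 18280.2 and 12933 CPM in the cardiac, 5372 and 5665 CPM in the lung and 18095 and 17140.4 CPM in the tail tip pair. Of these 10, 2 were at least 2-fold lower with Ad-Cre in the cardiac pair, Lum (ratio 0.385, 0.252 to 0.576) and Col3a1 (0.479, 0.471 to 0.487). In the lung pair 1 was, again Lum, with 626 and 192 reads (0.348, 0.295 to 0.410), and in the tail tip pair none. Among 10 p53 target genes, a list chosen because of Perp, 1 was at least 2-fold higher and 1 lower in the cardiac pair, Trp53inp1 (3.39, 3.19 to 3.61) and Bbc3 (0.437, 0.360 to 0.529).

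**Figure D5:**
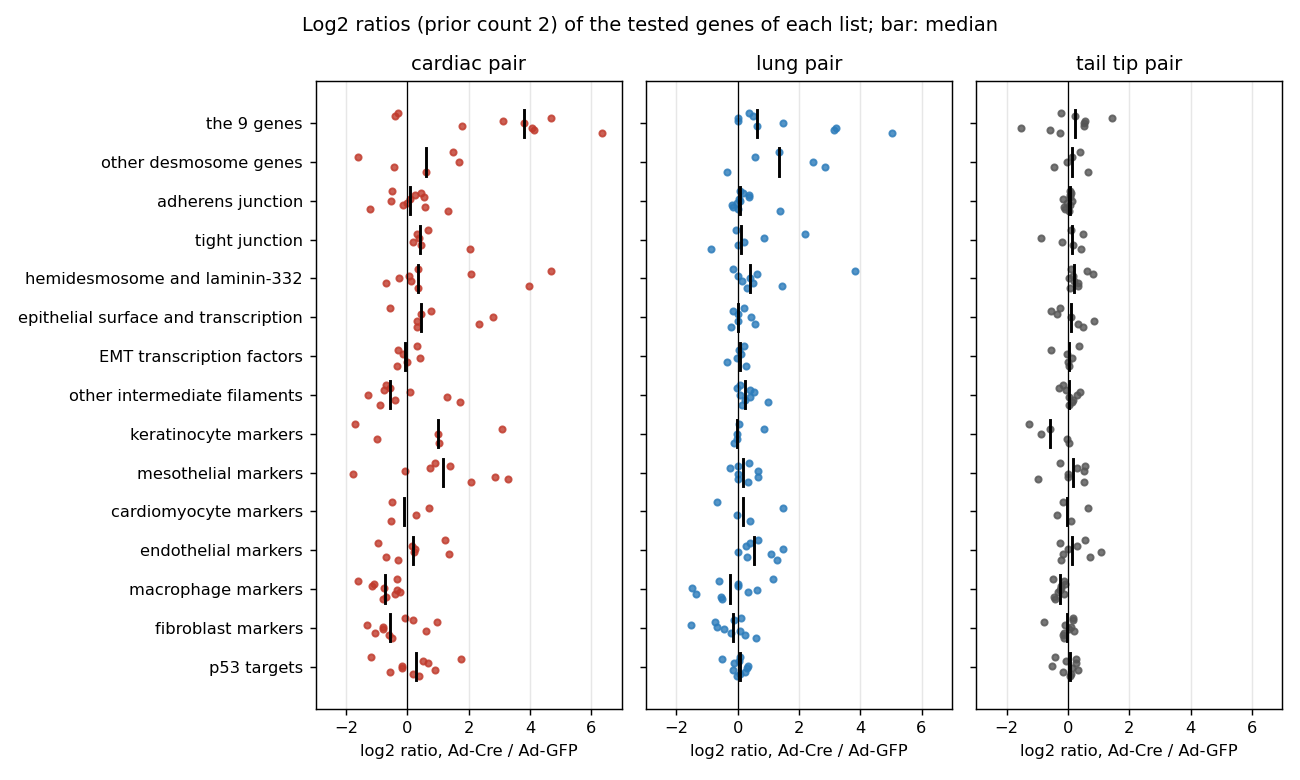
Log2 ratio of Ad-Cre to Ad-GFP (prior count of 2) for the tested genes of each list, by origin; each dot is 1 gene, and the black bar is the median. The 9 genes have the highest median in the cardiac panel, 3.79, because they were chosen for it, followed by mesothelial markers at 1.14 and keratinocyte markers at 1.01.

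Across the 6 libraries, which share origins and viruses, Pearson's r of log2 CPM is given as a description. Krt7 and Krt8 had the closest patterns among the 9 (r = 0.997), with Dsp and Perp at 0.95, Dsp and Jup at 0.93 and Krt18 and Krt19 at 0.90. Krt80 and Jup (0.06) and Krt80 and Dsp (0.08) were the least alike, Krt80 having lung reads where Dsp had none. Among 10484 other genes (mean level of 5 CPM or more) the nearest to Krt18 was Itga3, an integrin that binds laminin (r = 0.99). It stood at 36.8 and 234.9 CPM in the cardiac, 3.46 and 28.9 CPM in the lung and 4.05 and 3.23 CPM in the tail tip pair, and Slc35e2, Ets1, Cables2 and Fbxw7 followed. Nearest to Krt8 were Gdpd5 (0.97), Zfp385a, Mpg, BC024978 and Abca2. Dsp was nearest to Rnf169, the tight junction gene F11r, Arhgef12, Plxna2 and Zbtb1 (0.99 or above). Genes near to Jup were Fads3, Ldb3, Asb5 and Ecscr, with Fads3 at 271.4 and 239.1 CPM in the cardiac, 69.3 and 82.2 CPM in the lung and 132.7 and 135.8 CPM in the tail tip pair.

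Where the strand setting is unknown, reads of a gene cannot be told apart from those of an antisense gene that shares its exons. By a GRCm38 annotation the exons of 4 of the 9 overlap those of another gene, all antisense, and 5 do not. The shared stretch was 5.17% of the exon bases of Dsp, 5.16% of Krt8, 4.11% of Krt80 and 1.09% of Krt7. The partners had few reads: Gm671, opposite Krt7, had 19 reads in the cardiac library labelled Ad-Cre and none elsewhere, Gm35853, opposite Krt80, at most 33 in a library, Gm36026, opposite Krt8, at most 13, and Gm10129, opposite Dsp, none.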

How the data were processed

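Polyadenylated RNA, per the labels, of 6 libraries was measured, 1 for each combination of 3 origins and 2 adenoviruses, at 48 h. The authors deposited raw read counts per gene. STAR 2.0.7 and mm39 are named in the submitters' processing notes. The counter, annotation release and strand setting were not given in the sources used here. The matrix named in the labels has a title on another subject, so columns were matched by name alone.

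Symbols came from a reference table that matched 51884 of 57180 identifiers, exon lengths from a GRCm38 annotation, and upstream sequence from RefSeq. edgeR 4.0.16 (R 4.3.3) kept 18143 genes (filterByExpr, minimum count 10) and fitted origin plus virus over all 6 libraries with TMM scaling, robust quasi-likelihood tests and 2 residual degrees of freedom. Benjamini-Hochberg adjusted p-values, two-sided, had a threshold of 0.05. Pairs within an origin got no test. Their CPM ratios have exact conditional binomial 95% intervals, and log2 ratios a prior count of 2. PCR reads without molecular identifiers are no independent molecules, and so intervals and the floor of 3 reads cover counting error only. Steps were tested on simulated counts.

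The members, gene lists, naming rule and alternatives were chosen with earlier results of these data known. The rule names the 9 genes, other keratin genes reaching 20 reads in any library, up to 4 genes of each list with the largest absolute cardiac log2 ratio among those averaging 1 CPM or more, and defining markers near 0. For Krt8, Krt18, Dsp and Jup it also names the 5 genes of highest correlation. Not every gene it takes is printed, and some items are not reported here. Wt1, Dsg2, Dsc2, Epcam, Cdh1 and Tnnt2 were named as defining genes of their lists. Alternatives were DESeq2 1.42.0, its size factors, no TMM scaling, no filter, no virus term, a prior count of 0.5 and leaving out each library.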

Additional observations from a re-analysis of the deposited data

Results flagged for a closer look

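Jup stood out because its direction differed between origins. Its ratio of Ad-Cre to Ad-GFP was 0.758 in cardiac, 1.44 in lung and 1.17 in tail tip fibroblasts, and the difference between origins was not tested. Pkp2 differed in the same manner, with ratios of 0.814 in the cardiac, 1.30 in the lung and 0.846 in the tail tip pair, also without a test of the difference. With 1 library in each group the counting intervals of these ratios hold no spread between cultures.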

How the results depend on the processing

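Counts of members at least 2-fold higher within a pair stayed at 7, 4 and 1 under other size factors, without TMM scaling and with a prior count of 0.5. Members called between origins (5 for cardiac against lung, 7 for cardiac against tail tip, 5 for lung against tail tip) numbered 3 to 8, 3 to 8 and 2 to 8 when 1 library was left out. Genes called over the whole table then ran from 5038 to 10065, 3110 to 9205 and 5995 to 12560, and a lone library of an origin was then assumed to vary like the others. Genes called for the virus numbered 0, against 3 with DESeq2, 141 without the filter and 11 to 109 with 1 library left out. The libraries that chose the members enter this contrast, so nothing about the members is read from these counts. With 1 library left out, the log2 difference changed sign in cardiac against lung for Krt8 (range -0.32 to 2.59) and Krt80 (-1.06 to 1.53, and -0.09 without the lung Ad-Cre library). In lung against tail tip it did so for Krt7 (-2.26 to 4.69), Krt8 (-1.29 to 3.39), Krt18 (-1.45 to 7.67) and Pkp2 (-0.41 to 0.25, and 0.06 without the tail tip Ad-GFP library). Between the Ad-GFP libraries alone, a setting chosen after seeing the data, it turned for Krt80 in cardiac against lung (-0.87). In lung against tail tip the sign also differed for Krt7 (-1.16), Krt8 (-0.79) and Krt18 (-0.94). These 3 rest on at most 11 reads in a library, so no direction is read from them. The cause was not tested. The virus effect is blocked by origin. No paired analysis by replicate number was possible because every group holds 1 library and all carry the same number. Depth limits Krt7, Krt8 and Krt18 in the controls and tail tip, and Dsp and Perp in lung.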
